A study of Mus musculus with 18 samples.

Results

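The genes described here are 10 that act on protein antigen in endosomes and lysosomes, namely legumain (Lgmn), the cathepsins Ctss, Ctsl, Ctsb, Ctsh, Ctsz, Ctsc and Ctsd, the cathepsin inhibitor cystatin C (Cst3) and the thiol reductase GILT (Ifi30). They were chosen by name and found through their Ensembl identifiers, and all 10 were present among the 54232 genes of the count table and passed the filter on low counts. Their levels are described in mouse dendritic cells (DCs) of 3 subsets from 2 tissues.

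DCs take up protein and cut it into peptides in acidic compartments, where the peptides are loaded on MHC class II. Several proteases share this work, since endopeptidases such as legumain, cathepsin S and cathepsin D open the protein and degrade the invariant chain that occupies the class II groove, while exopeptidases such as cathepsins H, Z and C trim ends. GILT reduces disulfide bonds so that folded antigen becomes accessible, and cystatins hold cysteine cathepsins in check. DCs are known for keeping lysosomal proteolysis lower than macrophages do, and for changing it as they mature.

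The samples were 18 RNA-seq libraries of sorted C57BL/6J DCs, all given the genotype CD11a KO by the labels, with no wild-type library beside them. CD11b+, CD103+ and double-positive (CD11b+ and CD103+) DCs were isolated from lamina propria of the small intestine or from intestinal lymph nodes, with 3 libraries in each of the 6 groups. The protocol text shared with companion libraries describes live CD45+ CD64- MHCIIhigh CD11c+ cells, and it speaks of both steady state and Salmonella infection without tying either to a library. Age, sex, how the node cells were sorted and whether a library is 1 animal or a pool were not stated, so p-values measure the spread between these libraries, which may be technical.

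Itgal, which encodes CD11a, was read in all 18 libraries labelled CD11a KO, at 22.5, 24.3 and 18.8 CPM (counts scaled to library size) in lamina propria CD11b+, CD103+ and double-positive DCs and at 20.7, 8.66 and 12.7 in the lymph node groups, and no result below is tied to the genotype. Total counts lay between 23574292 and 46901985. The summed level of 5 DC genes lay between 18951 and 77682 CPM in all 18 libraries, most of it Cd74 and H2-Ab1. Of the others, Zbtb46 had group means between 173 and 255 CPM, Flt3 between 351 and 1032 and Itgax between 86.5 and 575. The summed level of 6 markers of cDC1, the lineage of CD103+ single-positive DCs, lay between 7730 and 8235 CPM in lamina propria CD103+ DCs. In lymph node CD103+ DCs it lay between 1989 and 2057, and both sums were above the other groups of the same tissue. Irf8 made up most of the latter sum (1615 CPM), and of the other markers Tlr3 was lower in lymph node CD103+ DCs (8.65 CPM) than in CD11b+ (22.2) and double-positive DCs (18.6), and Batf3 (156 CPM) overlapped double-positive DCs (183). Itgae, which encodes CD103, was at 5.97, 35.4 and 46.1 CPM in lymph node CD11b+, CD103+ and double-positive DCs against 1337 CPM in lamina propria CD103+ and 812 in lamina propria double-positive DCs. Itgam, which encodes CD11b, was at 68.5 CPM in lamina propria double-positive DCs and at 5.16 CPM in those of lymph node. In the same subset the summed level of 5 markers of cDC2, the CD11b+ lineage, was between 2634 and 3050 CPM in lamina propria and between 201 and 244 in lymph node, with Cd209a at 2131 and 9.52 CPM, while the cDC1 sum was between 257 and 292 CPM and between 939 and 1119. Both RNA markers of the double-positive label were thus lower in the lymph node group, and every tissue comparison of that subset sets these libraries against each other. In CD103+ DCs Itgae was likewise lower in lymph node, as given above. Of their cDC1 markers Xcr1 was at 1400 CPM in lamina propria and 97.6 in lymph node, and Tlr3 at 958 and 8.65. Clec9a (258 and 40.2), Cadm1 (520 and 103) and Irf8 (4650 and 1615) were lower as well, and Batf3 (148 and 156) was not. In CD11b+ DCs Itgam was at 61.3 and 20.8 CPM. The tissue comparisons of these subsets also set such libraries against each other. The Y-linked Ddx3y was read in all 9 libraries of lamina propria, and all 9 lymph node libraries carried Xist, with both in the third libraries of lymph node CD11b+ and double-positive DCs, so the tissue and the sex of the animals cannot be told apart.

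Promoter windows of RefSeq (GRCm38.p6, from 250 bases before to 50 after a start) were used for 8 of the 10 genes, all but Ctsb and Ctsh. The windows were searched for CACGTG, the E-box at the heart of the CLEAR element that many lysosomal genes carry, which reads the same on both strands. It occurred in windows of 4 of the 8 genes, which have 9 windows together. Of all 32851 windows of this length 7.15% held it, which is a share of windows and not of genes. The 30 bases around each match are shown to let the sites be compared, with the motif in capitals.
Lgmn (chr12:102439124-102439153, minus strand): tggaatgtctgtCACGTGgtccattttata
Ctsl (chr13:64370739-64370768, minus strand): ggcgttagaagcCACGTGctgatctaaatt
Ctsd (chr7:142388048-142388077, minus strand): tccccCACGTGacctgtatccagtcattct
Ctsd (chr7:142387908-142387937, minus strand): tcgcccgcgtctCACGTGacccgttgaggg
Ifi30 (chr8:70766842-70766871, minus strand): atccaaaaacttCACGTGaccagacatgct
The match of Lgmn lies before the second of its 2 annotated starts. The matches begin 49 bases before that start in Lgmn, 236 before the start in Ctsl, 245 and 98 in Ctsd and 196 in Ifi30. Ctss held no E-box but 1 match to GAAA repeated after 2 bases of any kind, a pattern of IRF factors searched on both strands and found in 3.44% of all windows, which begins 21 bases before the start and is shown as the 1 match of this kind.
Ctss (chr3:95526755-95526784, plus strand): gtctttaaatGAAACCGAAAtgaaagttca
GAGGAAG, a PU.1 pattern, matched in Ctss and Ctsc (13.6% of all windows), GGGANNNCC, an NF-kB pattern, matched in Ctsz (18.6%), and TGANTCA, an AP-1 pattern, matched in none of the 8 (7.81% of all windows), each searched on both strands. The PU.1 match of Ctss overlaps none of its other matches. These are matches of letters and were not related to binding.

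Cystatin C was the most abundant of the 10 transcripts per length in all 6 groups. Ctsl and Ctsd were the least abundant in 5 groups, and Ctsl and Lgmn in lymph node CD11b+ DCs. Ctsl and Ctsd share exon bases with other genes, as given below, so their counts and places are uncertain. Divided by the length of all annotated exons, Cst3 stood between 1821 CPM per kb in lymph node CD11b+ DCs and 12376 in lamina propria CD103+ DCs. On this length Ctss, Ctsz and Ifi30 took the next places in every group. Among the proteases Ctss led in the 3 lamina propria groups and in lymph node CD11b+ DCs (1199.6 CPM per kb in lamina propria CD11b+ DCs), while Ctsz led in lymph node CD103+ and double-positive DCs (1938 and 2106). Ctsl did not exceed 7.73 CPM per kb in any group. With the length of the principal transcript in place of all exons, Ctsh (1617 in place of 4499 bases) moved up in 4 of the 6 groups and Cst3 kept the first place in each. Ctsh then stood above Ifi30 in lamina propria CD11b+ and CD103+ and lymph node CD11b+ DCs. In lamina propria CD11b+ DCs Ctsd took the last place from Ctsl.

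**Figure D1:**
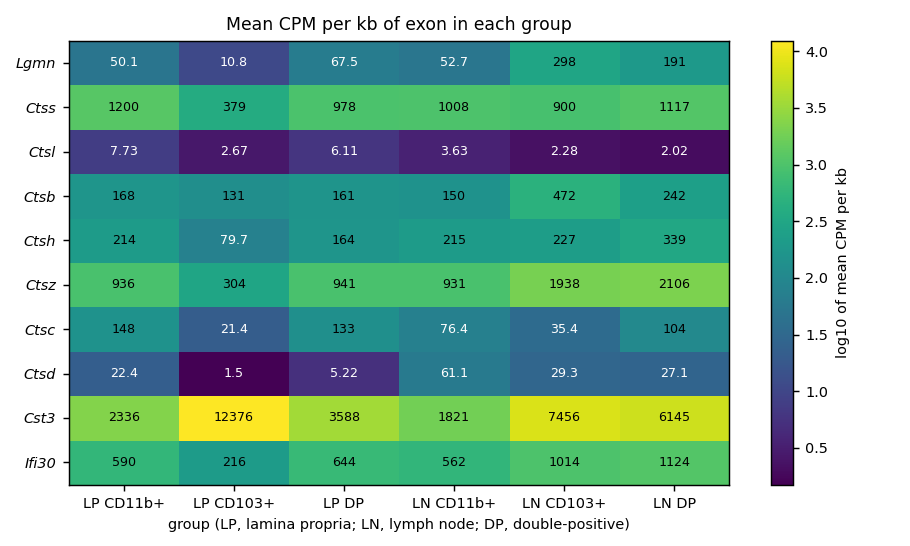
Mean CPM per kb of annotated exon for each gene (rows) and group (columns, n = 3), with the colour on a log10 scale. Cst3 is the brightest row in every column, from 1821 to 12376 CPM per kb, and Ctsl the darkest or nearly so, from 2.02 to 7.73. The counts of Ctsl and Ctsd are uncertain because they share exon bases with other genes.

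The 10 transcripts together made up 9570 ± 211 CPM (mean ± SD of 3 libraries) in lamina propria CD11b+ DCs, 18155 ± 465 in CD103+ and 10554 ± 488 in double-positive DCs. In the lymph node the sums were 8172 ± 832, 19311 ± 1364 and 17550 ± 196 CPM in the same order. The similar sums of CD103+ DCs in both tissues were made of different transcripts, because Cst3 held 86.3% of the sum in lamina propria and 48.9% in lymph node. In the other groups its share was between 28.2% and 44.3%.

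**Figure D2:**
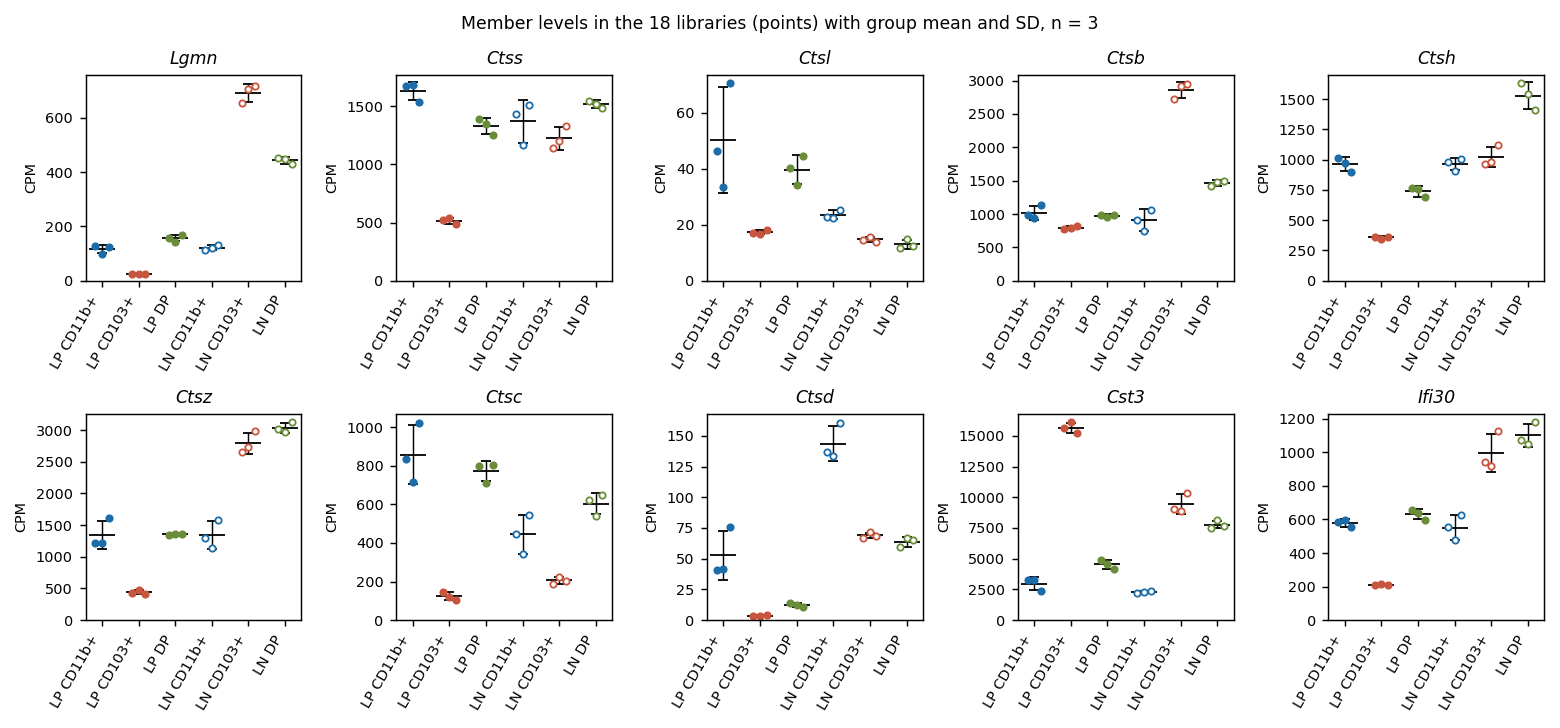
Level in CPM (linear axis from 0, one scale per gene) in each of the 18 libraries, with the group mean (bar) and SD, n = 3. Filled points are lamina propria (LP) and open points lymph node (LN), with DP for double-positive. LP CD103+ DCs are lowest of the 6 groups for 8 genes and highest for Cst3.

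Legumain, the asparaginyl endopeptidase that makes first cuts in some antigens and matures other lysosomal proteases, varied more than any other member apart from Ctsd. Lgmn (ENSMUSG00000021190, chr12:102394084-102439813 of GRCm38, minus strand) was at 25.2, 25.1 and 25.1 CPM in the 3 libraries of lamina propria CD103+ DCs and at 655, 704 and 716 CPM in those of lymph node CD103+ DCs. Lamina propria double-positive DCs had 159, 144 and 167 CPM and lymph node double-positive DCs 450.4, 449.7 and 428. These groups were fully apart, and the CD103+ groups held both the lowest and the highest of the 6 means. CD11b+ DCs overlapped between tissues, with 127, 98.4 and 124 CPM in lamina propria and 115, 119.5 and 133 in lymph node. The log2 fold change of lymph node over lamina propria was 4.78 (SE 0.11, adjusted p = 1.2e-14) in CD103+ DCs, which is 27.5-fold, 1.50 (SE 0.09, adjusted p = 5.9e-10) in double-positive DCs and 0.07 (SE 0.09, adjusted p = 0.57) in CD11b+ DCs. The tissue effect in CD103+ DCs exceeded that in CD11b+ DCs by 4.71 ± 0.13 (log2 ± SE, adjusted p = 1.3e-12).

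Cathepsin S, the cysteine endopeptidase that removes the last part of the invariant chain in DCs, was abundant everywhere but in lamina propria CD103+ DCs. Ctss (ENSMUSG00000038642, chr3:95526786-95556403, plus strand) was at 518, 537 and 489.6 CPM there and at 1136, 1203 and 1328 CPM in lymph node CD103+ DCs. In the other groups it was between 1162 and 1677 CPM, and each group in the order of the 4 highest means overlapped the next. The CD103+ groups did not overlap and differed by 1.25 (SE 0.09, adjusted p = 6e-09) on the log2 scale. In CD11b+ and double-positive DCs the tissue difference was -0.25 ± 0.09 (adjusted p = 0.043) and 0.19 ± 0.09 (adjusted p = 0.086), neither of which passed the limits for a call.

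Cathepsin L, an endopeptidase best known for invariant chain processing in thymic epithelium, was low, and lower in lymph node than in lamina propria CD11b+ and double-positive DCs. Ctsl (ENSMUSG00000021477, chr13:64359337-64370890, minus strand) was at 46.4, 33.3 and 70.7 CPM in lamina propria CD11b+ DCs and at 22.9, 22.3 and 25.4 in lymph node CD11b+ DCs. Double-positive DCs had 40.3, 34.3 and 44.4 CPM in lamina propria and 11.9, 14.9 and 12.5 in lymph node. In CD103+ DCs the level was 17.2, 16.8 and 18.03 CPM in lamina propria and 14.7, 15.7 and 13.9 in lymph node. The lamina propria libraries were the higher ones in each pair without overlap, but the third CD11b+ library stood above its partners. The difference was -1.09 (SE 0.19, adjusted p = 0.00029) in CD11b+ DCs, -1.60 (SE 0.20, adjusted p = 2.6e-06) in double-positive DCs and -0.23 (SE 0.19, adjusted p = 0.32) in CD103+ DCs. Without the third lamina propria CD11b+ library the first of these was -0.76 and under the fold limit. Ctsl shares 26.8% of its exon bases with the antisense Gm47123 and 6.1% with the pseudogene Gm49230, so its count is uncertain.

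Cathepsin B, an endopeptidase with an added exopeptidase activity, differed little between subsets of the lamina propria and rose in lymph node CD103+ DCs. Ctsb (ENSMUSG00000021939, chr14:63122462-63145923, plus strand) was at 769.5, 796 and 815 CPM in lamina propria CD103+ DCs and at 2719, 2912 and 2943 in lymph node CD103+ DCs. Double-positive DCs had 988, 949.98 and 991 CPM in lamina propria and 1419, 1484 and 1496 in lymph node. CD11b+ DCs overlapped, with 1016 ± 102 and 907 ± 162 CPM in lamina propria and lymph node. The difference was 1.85 (SE 0.11, adjusted p = 2.5e-10) in CD103+ DCs, whereas 0.59 (SE 0.11, adjusted p = 0.00014) in double-positive DCs stayed under the 2-fold limit. Ctsb shares 12.8% of its exon bases with Fdft1 on the other strand, and its count is uncertain to that extent.

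Cathepsin H, an aminopeptidase, was highest in lymph node double-positive DCs. Ctsh (ENSMUSG00000032359, chr9:90054152-90076089, plus strand) was at 1629, 1541 and 1407 CPM in that group and at 769, 757 and 688 CPM in its lamina propria counterpart, with no overlap. CD103+ DCs had 364, 349 and 363 CPM in lamina propria and 966, 984 and 1120.2 in lymph node, also without overlap. In CD11b+ DCs the means were 962 ± 57.8 and 966 ± 50.2 CPM and the libraries overlapped. The difference was 1.51 (SE 0.08, adjusted p = 1.2e-10) in CD103+ DCs, 1.05 (SE 0.08, adjusted p = 1.3e-08) in double-positive DCs and 0.01 (SE 0.08, adjusted p = 0.97) in CD11b+ DCs.

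Cathepsin Z, a carboxypeptidase that removes single residues, was the leading protease per length in lymph node CD103+ and double-positive DCs. Ctsz (ENSMUSG00000016256, chr2:174427493-174439039, minus strand) was at 3016, 2969.7 and 3121 CPM in lymph node double-positive DCs and at 2659, 2737 and 2980.4 CPM in lymph node CD103+ DCs, which overlapped. The lamina propria counterparts had 1339, 1364 and 1364 and 424, 475 and 417 CPM, below every library of the 2 lymph node groups. CD11b+ DCs had 1223, 1218 and 1606 CPM in lamina propria and 1303, 1146 and 1574 in lymph node, overlapping. The difference was 2.67 (SE 0.12, adjusted p = 1.4e-11) in CD103+ DCs, 1.16 (SE 0.12, adjusted p = 2.8e-07) in double-positive DCs and -0.01 (SE 0.12, adjusted p = 0.97) in CD11b+ DCs.

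Cathepsin C, a dipeptidyl peptidase that also activates serine proteases of granules, was highest in lamina propria CD11b+ and double-positive DCs. Ctsc (ENSMUSG00000030560, chr7:88278085-88310888, plus strand) was at 835, 717 and 1024 and 799.9, 713 and 805 CPM in these groups and at 147, 119 and 106 CPM in lamina propria CD103+ DCs, which stood apart from both. In the lymph node it was at 446, 342 and 544 CPM in CD11b+, 189, 224 and 204 in CD103+ and 621, 542 and 649 in double-positive DCs, and the CD103+ libraries were again the lowest. The tissue difference was -0.95 (SE 0.16, adjusted p = 0.0002) in CD11b+ DCs and 0.73 (SE 0.16, adjusted p = 0.00086) in CD103+ DCs, both past the limit on adjusted p but under 2-fold. The first passed both limits at -1.13 without the third lymph node CD11b+ library, at -1.07 without the second lamina propria CD11b+ library and at -1.12 without the 2 libraries that carry both sex-linked transcripts. Their signs were opposite, and the tissue effects of CD103+ and CD11b+ DCs differed by 1.68 (SE 0.23, adjusted p = 1.9e-05).

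Cathepsin D, the main aspartic endopeptidase of lysosomes, was the only member that rose in the lymph node in all 3 subsets. Ctsd (ENSMUSG00000007891, chr7:142375911-142388038, minus strand) was at 3.25, 3.48 and 3.88 CPM in lamina propria CD103+ DCs and at 67.0, 71.5 and 68.4 in lymph node CD103+ DCs. Double-positive DCs had 13.7, 12.5 and 10.6 CPM in lamina propria and 59.2, 66.7 and 65.6 in lymph node. CD11b+ DCs had 40.8, 41.8 and 75.4 CPM in lamina propria and 137, 134 and 160.1 in lymph node. Every lymph node library of a subset was above every lamina propria library of that subset. The log2 differences were 4.29 (SE 0.21, adjusted p = 2.6e-11), 2.38 (SE 0.19, adjusted p = 1.3e-08) and 1.45 (SE 0.18, adjusted p = 7.6e-06) in CD103+, double-positive and CD11b+ DCs. CD11b+ DCs had the highest mean of the subsets in both tissues, as they also had for Ctsl. Ctsd shares 34.4% of its exon bases with Gm49369 on the same strand, a gene whose median count was 0, and how reads that fit both were counted was not stated, so its count is uncertain.

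Cystatin C, a secreted and endosomal inhibitor of cysteine cathepsins, was highest where most of the proteases were lowest, in lamina propria CD103+ DCs. Cst3 (ENSMUSG00000027447, chr2:148871722-148875692, minus strand) was at 15640, 16101 and 15262 CPM in lamina propria CD103+ DCs, above all other libraries, and at 9030.4, 8909 and 10376 CPM in lymph node CD103+ DCs. Double-positive DCs had 4897, 4579 and 4153 CPM in lamina propria and 7536, 8114 and 7687 in lymph node. CD11b+ DCs were lowest, with 3254, 3279 and 2340.4 CPM in lamina propria and 2243, 2299 and 2373 in lymph node, and these overlapped. The tissue difference was -0.73 (SE 0.12, adjusted p = 3.5e-05) in CD103+ DCs and 0.78 (SE 0.12, adjusted p = 2.1e-05) in double-positive DCs, both past the limit on adjusted p, opposite in sign and under 2-fold. The difference between these 2 tissue effects was itself 1.51 (SE 0.16, adjusted p = 5.3e-06).

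GILT, the thiol reductase encoded by Ifi30 (ENSMUSG00000031838, chr8:70762774-70766663, minus strand), followed cathepsin Z. Ifi30 was at 207, 216 and 212 CPM in lamina propria CD103+ DCs and at 942, 916 and 1126 in lymph node CD103+ DCs. Double-positive DCs had 655, 640.5 and 599 CPM in lamina propria and 1072, 1053 and 1181 in lymph node. Both pairs were apart, while CD11b+ DCs had 579 ± 21.3 and 551 ± 73.9 CPM and overlapped. The difference was 2.23 (SE 0.10, adjusted p = 1.1e-11) in CD103+ DCs, and 0.80 (SE 0.10, adjusted p = 2.2e-06) in double-positive DCs was under 2-fold. Ifi30 shares 8.7% of its exon bases with 6330537M06Rik on the other strand, a gene with a median count of 38.

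The order of the groups was therefore not the same for the 10 genes. The fold between the highest and the lowest group mean was 40.6 for Ctsd, 27.5 for Lgmn, 6.92 for both Ctsz and Ctsc, 6.80 for Cst3, 5.21 for Ifi30, 4.25 for Ctsh, 3.83 for Ctsl, 3.60 for Ctsb and 3.16 for Ctss. The lowest group was lamina propria CD103+ DCs for 8 genes, lymph node double-positive DCs for Ctsl and lymph node CD11b+ DCs for Cst3. As these are bulk libraries, fewer cells of a type and less RNA per cell cannot be told apart.

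Between tissues, most of the 10 genes passed the limits for a call in CD103+ DCs, fewer in double-positive DCs and fewest in CD11b+ DCs, but single genes did not keep to this order (Ctsl, Ctsc, Cst3). A gene was called at an adjusted p under 0.01 (Benjamini-Hochberg over 17074 genes, edgeR quasi-likelihood test) and a fold change over 2. In CD103+ DCs 7 genes rose in the lymph node (Lgmn, Ctsd, Ctsz, Ifi30, Ctsb, Ctsh and Ctss) and none fell, where 19.8% of all genes tested rose and 15.1% fell. The median log2 fold change was 1.68 over the 10 genes and 0.04 over all genes. In double-positive DCs 4 genes rose (Ctsd, Lgmn, Ctsz and Ctsh) and 1 fell (Ctsl), against 18.6% and 13.6% of all genes, with medians of 0.79 and 0.07. In CD11b+ DCs 1 gene rose (Ctsd) and 1 fell (Ctsl), against 10.3% and 4.93% of all genes, with medians of -0.12 and 0.03. Under total counts without scaling Ctsl fell under the fold limit in CD11b+ DCs (-0.96), as did Ctsh (0.88) and Ctsz (0.99) in double-positive DCs. Ctsd was the 1 gene called the same way in all 3 subsets, where 7.21% of all genes were higher in all 3 and 2.40% lower.

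**Figure D3:**
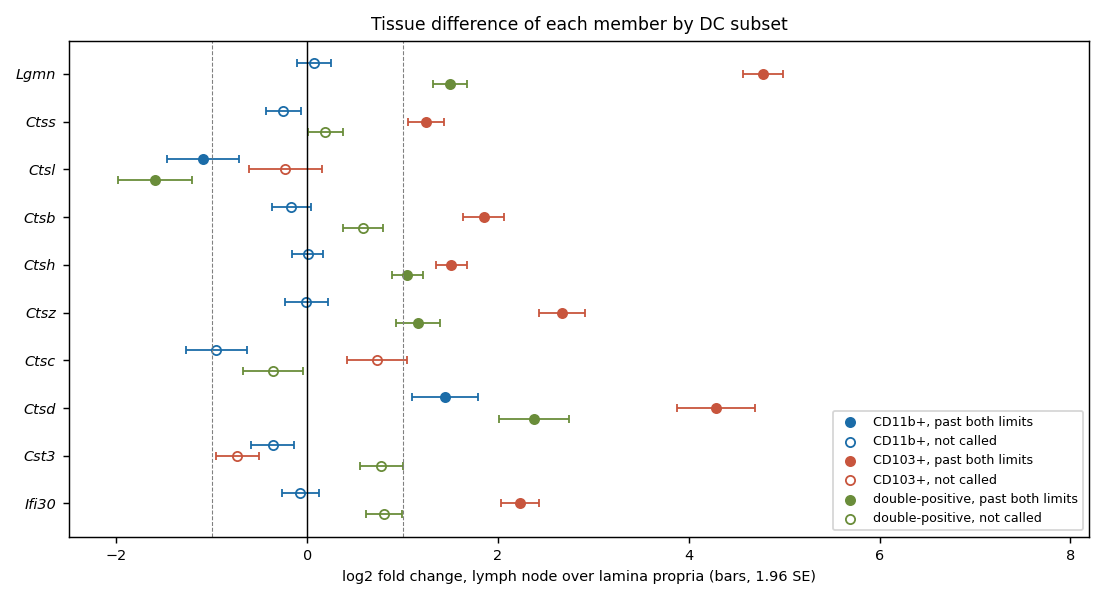
Log2 fold change of lymph node over lamina propria for each gene, by DC subset, with bars of 1.96 SE. Filled points passed both limits, open points did not, and the dashed lines mark a 2-fold change. CD103+ DCs lie farthest right for Lgmn (4.78) and Ctsd (4.29), and CD11b+ DCs lie near 0 for Lgmn, Ctsh, Ctsz and Ifi30.

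The tissue effect differed between the 3 subsets for 10 of the 10 genes by an F test at an adjusted p under 0.01, which 31.5% of all genes passed. Between CD103+ and CD11b+ DCs the tissue effect was higher in CD103+ DCs for 8 genes, all but Ctsl (0.86 ± 0.27, adjusted p = 0.019) and Cst3 (-0.37 ± 0.16, adjusted p = 0.084), where 18.5% of all genes were called in either direction. Between double-positive and CD11b+ DCs 4 genes were called, Lgmn (1.43 ± 0.13), Ctsz (1.17 ± 0.17), Cst3 (1.14 ± 0.16) and Ctsh (1.04 ± 0.12), against 11.6% of all genes. Between double-positive and CD103+ DCs the effect was lower in double-positive DCs for 8 genes and higher for Cst3, with Ctsh not called (-0.46 ± 0.12, adjusted p = 0.0082), against 8.37% of all genes. These 3 contrasts share groups and are not independent. Under total counts without scaling 1 gene, Lgmn, was called between double-positive and CD11b+ DCs in place of 4, while 8 and 9 genes were called in the other contrasts.

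Markers of other states and cells moved with these comparisons. The summed level of 7 genes of mature DCs, among them Ccr7 and Fscn1, was between 832 and 2395 CPM over the 9 libraries from lamina propria. In the lymph node it was between 3819 and 6238 CPM in CD11b+, between 26283 and 27380 in CD103+ and between 21794 and 24257 in double-positive DCs, and 6 of the 7 genes had a mean of at least 10 CPM in all 3, the exception being Il4i1, which was below 1 CPM in all 6 groups. The summed level of 10 macrophage genes was between 743 and 1563 CPM in lamina propria CD11b+ DCs and between 319 and 524 in lymph node CD11b+ DCs. C1qa, C1qb and C1qc held most of the former (196, 348 and 240 CPM). Adgre1 (95.4 and 169 CPM) and Cx3cr1 (44.3 and 57.9) had the higher mean in lymph node CD11b+ DCs. The sum was between 37.7 and 47.2 CPM in lamina propria CD103+ DCs and between 13.2 and 17.1 in lymph node CD103+ DCs. In the latter Fcgr1 was at 0 in all 3 libraries, while Mertk (0.724 CPM) and Mrc1 (2.33) were above their lamina propria means (0.0118 and 0.478). Double-positive DCs had 292 to 331 CPM in lamina propria and 84.9 to 89.7 in lymph node, and 10, 5, 9, 10, 5 and 6 of the 10 genes had a mean of at least 1 CPM in lamina propria CD11b+, CD103+ and double-positive and in lymph node CD11b+, CD103+ and double-positive DCs. The summed level of 8 T cell genes was between 7.57 and 37.7 CPM in lamina propria and between 332 and 755 CPM in lymph node libraries, where all 8 had a mean of at least 10 CPM in each group. Other lists differed as well. The summed level of 6 epithelial genes was between 189 and 451 CPM in lamina propria CD11b+ and between 57.3 and 101 in CD103+ DCs. In double-positive DCs of that tissue it was between 428 and 571. In the lymph node groups it was between 28.9 and 35.8, 24.0 and 29.9, and 61.1 and 62.5 in the same order. Most of the sum was Epcam, at 210, 47.4 and 452 CPM in the lamina propria groups. Of the other genes none exceeded 33.2 CPM as a group mean, and none was highest in double-positive DCs. The 5 B cell genes summed to between 8.01 and 44.4 CPM over the lamina propria groups, to between 107 and 152 in lymph node CD11b+ DCs and to between 34.3 and 55.8 in the other lymph node groups. The 3 plasma cell genes, mostly Jchain, summed to between 1404 and 1809 CPM in lamina propria and between 1178 and 1301 in lymph node CD11b+ DCs, against 187 to 502 in the other groups. The 4 genes of monocytes and neutrophils summed to between 293 and 411 CPM in lamina propria and between 184 and 207 in lymph node CD11b+ DCs, and to at most 101 in the other groups. Ccr2 held most of the sum in CD11b+ DCs of both tissues (344 and 134 CPM). Ly6c2 (13.95 and 57.6 CPM), S100a8 (0.541 and 3.03) and S100a9 (0.972 and 3.30) had the higher mean in lymph node CD11b+ DCs. The libraries of the tissues overlapped for S100a8 and S100a9. The 5 cDC2 genes summed to between 2161 and 3100 CPM in lamina propria and between 769 and 1206 in lymph node CD11b+ DCs. The part of these in the members' differences was not tested.

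Within the lamina propria, CD103+ DCs stood apart from the other subsets. Against CD11b+ DCs, 8 genes were lower (Ctsd, Ctsc, Lgmn, Ctss, Ctsz, Ctsl, Ifi30 and Ctsh) and Cst3 was higher, where 10.6% of all genes were lower and 5.07% higher. The largest were Ctsd with -3.90 (SE 0.21, adjusted p = 3.4e-10) and Ctsc with -2.79 (SE 0.17, adjusted p = 1.7e-09), and Ctsb was not called (-0.36 ± 0.11, adjusted p = 0.013). The median was -1.58 over the 10 genes and -0.04 over all genes. Between double-positive and CD11b+ DCs 1 of the 10 was called, Ctsd (-2.10 ± 0.19, adjusted p = 1.9e-06), where 3.67% of all genes were lower and 1.14% higher. Cst3 (0.62 ± 0.12, adjusted p = 0.0016), Lgmn (0.43 ± 0.09, adjusted p = 0.0041) and Ctsh (-0.38 ± 0.08, adjusted p = 0.0046) also passed the limit on adjusted p, with no overlap, but were under 2-fold. Double-positive DCs were called above CD103+ DCs in 8 genes, all but Ctsb and Cst3, and below them in Cst3, where 8.10% of all genes were higher and 5.52% lower. The 2 contrasts with CD103+ DCs share those 3 libraries.

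Within the lymph node other members were called between the subsets. CD103+ DCs were called above CD11b+ DCs in Lgmn (2.50 ± 0.09), Cst3 (2.03 ± 0.12), Ctsb (1.66 ± 0.11) and Ctsz (1.06 ± 0.12), and below them in Ctsc (-1.11 ± 0.16) and Ctsd (-1.06 ± 0.18), where 10.2% of all genes were higher and 15.6% lower. Double-positive DCs were called above CD11b+ DCs in Lgmn (1.86 ± 0.09), Cst3 (1.75 ± 0.12), Ctsz (1.18 ± 0.12) and Ifi30 (1.00 ± 0.10) and below them in Ctsd (-1.17 ± 0.18), where 6.92% were higher and 9.82% lower. Past the limit on adjusted p but under 2-fold were Ifi30 (0.85 ± 0.10, adjusted p = 1.4e-06) and Ctsl (-0.67 ± 0.19, adjusted p = 0.008) for CD103+ against CD11b+ DCs. For double-positive against CD11b+ DCs these were Ctsb (0.69 ± 0.11, adjusted p = 4.9e-05), Ctsh (0.66 ± 0.08, adjusted p = 6.6e-06) and Ctsl (-0.85 ± 0.20, adjusted p = 0.0021). Between double-positive and CD103+ DCs 1 gene was called, Ctsc, which was higher in double-positive DCs (1.55 ± 0.16), where 4.69% of all genes were higher and 1.84% lower. Ctsb (-0.96 ± 0.11, adjusted p = 4.9e-06), Lgmn (-0.64 ± 0.09, adjusted p = 5.8e-05) and Ctsh (0.58 ± 0.08, adjusted p = 6.9e-05) passed the limit on adjusted p in this contrast, with no overlap, but were under 2-fold. Total counts without scaling moved the median of all genes from -0.13 to -0.56 in the first of these contrasts and from -0.08 to -0.44 in the second, and the share of higher genes among all called from 39.6% to 19.5% and from 41.3% to 19.3%. With it the first contrast had 3 members higher and 3 lower, without Ctsz (0.63) and with Ctsl (-1.10), and the second had 2 higher and 2 lower, without Ctsz (0.82) and Ifi30 (0.64) and with Ctsl (-1.21). Without the 2 libraries that carry both sex-linked transcripts, Ctsd (-0.98) and Ctsc (-0.94) fell under the fold limit in the first contrast.

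**Figure D4:**
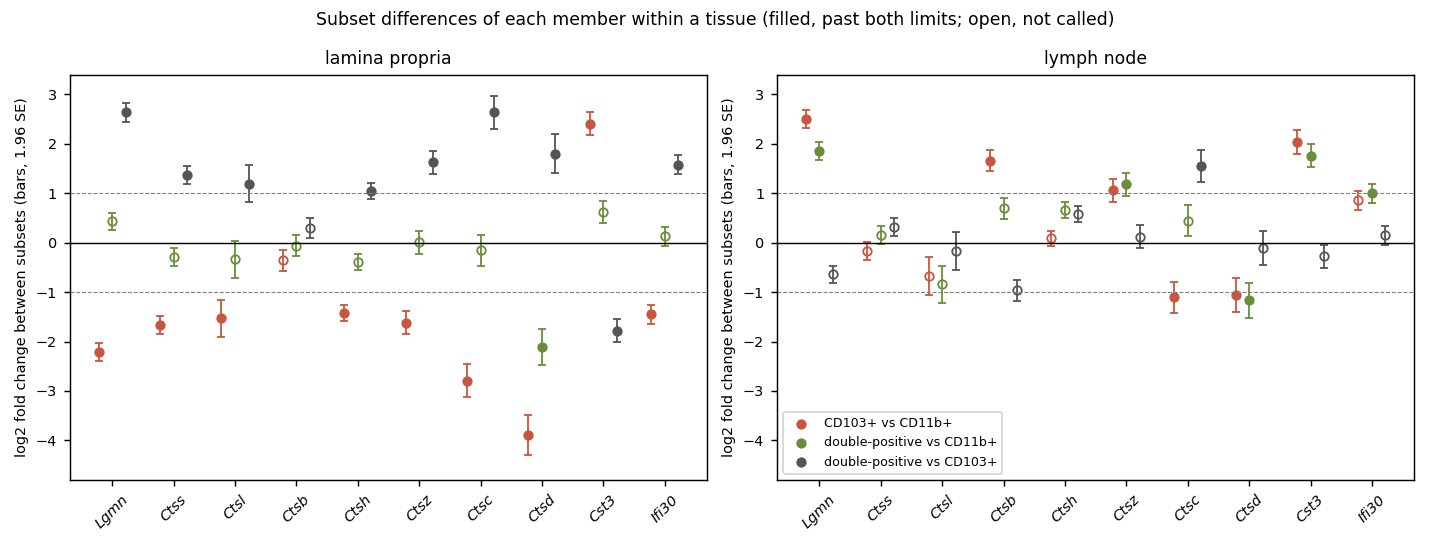
Log2 fold change between DC subsets for each gene in lamina propria (left) and lymph node (right), with bars of 1.96 SE. Filled points passed both limits. Among filled points of lamina propria, CD103+ DCs are below CD11b+ DCs for 8 genes and above for Cst3 (2.41). Among those of lymph node they are above for Lgmn (2.50), Cst3 (2.03), Ctsb and Ctsz and below for Ctsc and Ctsd.

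Other genes of the pathway did not move as one block. Of 11 further lysosomal proteases 10 were tested, and 2, 4 and 3 were higher in the lymph node and 0, 1 and 2 lower in CD11b+, CD103+ and double-positive DCs. In each of these lists the counts stand against 10.3%, 19.8% and 18.6% of all genes higher and 4.93%, 15.1% and 13.6% lower in the same order, and with lists this short many lie near those shares. Under total counts 2 of these proteases were lower in CD103+ DCs, and with DESeq2 size factors or its test 5 were higher. Ctse, an aspartic protease, rose in all 3 subsets but reached only 14.8 CPM in its highest group. Ctsw, a cathepsin of T and NK cells, also rose in all 3, from 0.799 to 34.2 CPM in CD103+ DCs, beside the T cell genes given above. Scpep1, a serine carboxypeptidase, rose by 3.15 (SE 0.12, adjusted p = 1.9e-12) in CD103+ and 1.48 (SE 0.12, adjusted p = 1.2e-08) in double-positive DCs. Ctsa, a carboxypeptidase that protects other lysosomal enzymes, fell in the same subsets, with log2 fold changes of -1.30 (SE 0.12, adjusted p = 7e-08) and -1.65 (SE 0.12, adjusted p = 5.1e-09). Napsa, an aspartic protease, fell in double-positive DCs (-1.24 ± 0.12, adjusted p = 9.4e-08), so the 2 other aspartic proteases named did not share a direction.

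All 6 protease inhibitors other than cystatin C rose in lymph node CD103+ and double-positive DCs, and 1 of them, Serpinb9, in CD11b+ DCs. The least abundant of the 6, a cystatin, had at most 3.87 CPM as a group mean, and 0.0491 and 0.830 CPM in double-positive DCs. Serpinb9, an inhibitor of granzyme B, rose from 468 to 2257 CPM in CD103+ DCs (2.27 ± 0.21, adjusted p = 6.6e-08). Serpinb1a, an inhibitor of neutrophil serine proteases, rose from 47.6 to 707 CPM (3.89 ± 0.20, adjusted p = 4.6e-11). Cystatin B (Cstb), which binds cysteine cathepsins outside the lysosome, rose from 116 to 583 CPM (2.33 ± 0.12, adjusted p = 5.4e-11). Cystatin F (Cst7), which is targeted to lysosomes, rose from 0.674 to 11.4 CPM (4.06 ± 0.39, adjusted p = 1.2e-07). The median log2 fold change of the list was 0.46, 3.17 and 2.15 in CD11b+, CD103+ and double-positive DCs. Without scaling, or with DESeq2 as the test, 2 of the 6 rose in CD11b+ DCs.

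The 9 genes of class II and its loading went the other way. Of these 2, 9 and 6 were lower in the lymph node in CD11b+, CD103+ and double-positive DCs and none was higher, with medians of -0.53, -1.91 and -1.09. H2-DMa and H2-DMb1, the chains of the peptide exchanger H2-DM, were lower in all 3 subsets. In CD103+ DCs H2-DMb1 fell from 1564 to 73.8 CPM, a log2 fold change of -4.41 (SE 0.13, adjusted p = 1.2e-13). H2-DMb1 and H2-DMb2 are near-identical, so the levels of both are uncertain. Over the 3 subsets the mean log2 fold change was -2.77 for H2-DMb1 and -0.83 for H2-DMb2, which was not called in all 3. The invariant chain Cd74 fell from 38078 to 14377 CPM in CD103+ DCs (-1.41 ± 0.11, adjusted p = 1.2e-08). The numbers of genes called in this list were the same under both other scalings and with DESeq2. They were also the same without the 2 libraries that carry both sex-linked transcripts. In CD103+ DCs Lgmn, Ctss and Ifi30 were thus higher in the same libraries in which the class II genes were lower.

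Of 18 subunits of the proton pump that acidifies these compartments, 1, 6 and 3 were higher and 1 was lower in each subset, and of the counts of higher subunits the 6 in CD103+ DCs alone stood above the share of all genes. Tcirg1, a subunit known from osteoclasts, was lower in all 3, and Atp6v0d2, higher in all 3, had at most 2.26 CPM as a group mean. Of 35 lysosomal membrane proteins and hydrolases that are no proteases, 1, 5 and 7 were higher and 9, 13 and 11 lower. The tetraspanin Cd63 was higher in all 3 subsets (6.97 ± 0.48, adjusted p = 1.9e-09 in CD103+ DCs), and Cd68 (-4.18 ± 0.16, adjusted p = 1.3e-12), the lipid cofactor Gm2a (-3.85 ± 0.17, adjusted p = 5.3e-12) and the mannosidase Man2b1 (-3.92 ± 0.11, adjusted p = 1.2e-13) were among those lower in all 3. Of 10 sorting receptors and transcription factors of lysosomal genes, 2, 3 and 3 were higher and 1, 2 and 2 lower, with the sorting receptor Sort1 higher and Mitf lower in all 3. Under total counts the proton pump list had 0 lower in CD11b+ and 4 higher in CD103+ DCs, the membrane and hydrolase list had 6 lower in CD11b+, 14 lower in CD103+ and 5 higher with 12 lower in double-positive DCs, and the list with the transcription factors had 2 higher in CD103+ DCs. The last list also had 1 lower in CD103+ DCs with DESeq2 size factors or its test. Without the 2 libraries that carry both sex-linked transcripts the membrane and hydrolase list had 10 lower in CD11b+ DCs, and the list with the transcription factors had 0 lower in CD11b+, 1 lower in CD103+ and 2 higher with 1 lower gene in double-positive DCs.

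**Figure D5:**
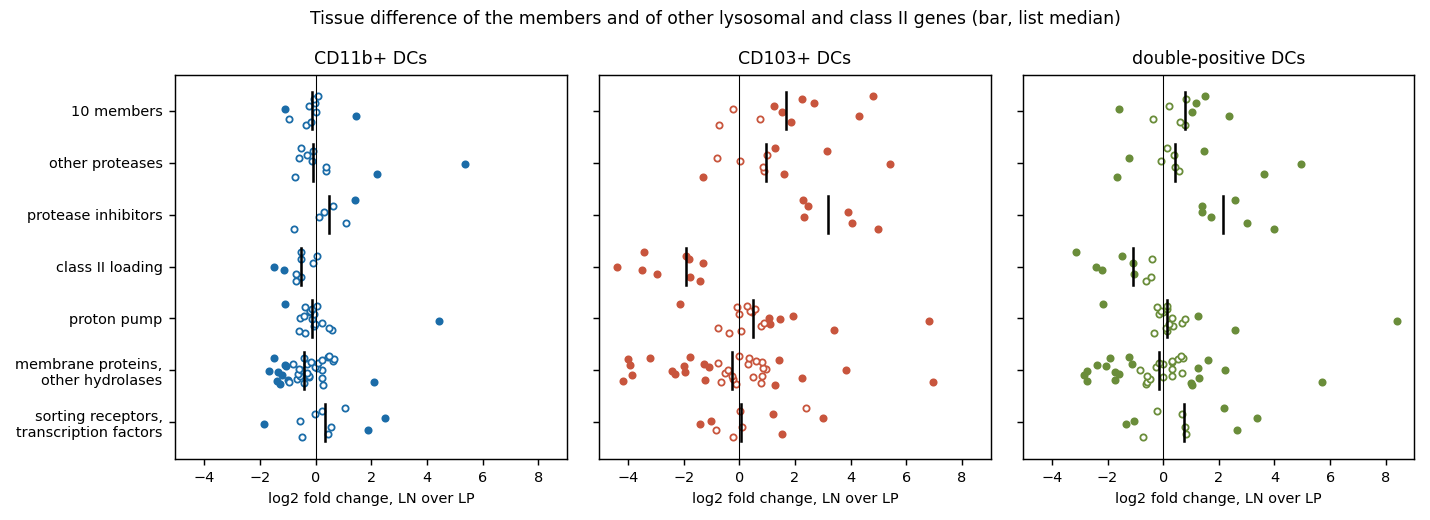
Log2 fold change of lymph node (LN) over lamina propria (LP) of each tested gene in the members and 6 other lists, by DC subset. Filled points passed both limits and the vertical bar is the median of the list. In CD103+ DCs the median of the members is 1.68, that of the protease inhibitors 3.17 and that of class II and its loading -1.91.

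Across the 18 libraries the members with the most alike patterns were Ctsz and Ifi30, with a Pearson r of log2 CPM of 0.99, followed by Lgmn and Ctsz (0.97) and Lgmn and Ifi30 (0.96). Cst3 had its lowest r with Ctsc (-0.74) and Ctss (-0.70). These r are descriptions over libraries that fall into 6 groups and share scaling and depth. Of the 8673 genes with a mean of at least 10 CPM, those most like Lgmn were Bcl10, Ctsz and Slc2a6 (0.97 each). Those most like Ctsb were Gabarapl1 (0.98), Fxr1 and Sirt2 (0.97 each). Those most like Ctsc were Ggh (0.97), Tyrobp and Pou2f2 (0.96 each), and those most like Cst3 were Strbp, Gusb (0.97 each) and Rab11a (0.96).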

How the data were processed

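The authors deposited raw read counts per gene, without normalization, for 54232 Ensembl genes in 18 libraries. The submitters' processing notes name FastQC 0.11.7, STAR 2.6 and GRCm38. How reads were counted is not given for these libraries. For the companion libraries the study describes SMART-seq v4 amplification, unique alignments only and counting without strand, under which reads shared by overlapping or near-identical genes cannot be assigned.

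Symbols were matched by identifier (54079 of 54232 genes), and positions and exon lengths were taken from GENCODE vM21 (GRCm38). Differential expression was tested with edgeR 4.0.16 in R 4.3.3. Counts were normalized by TMM, filterByExpr kept 17074 genes, and 1 quasi-likelihood fit held a mean for each of the 6 groups. A gene was called at an adjusted p under 0.01 (Benjamini-Hochberg over all genes tested) and a fold change over 2, the limits the study states for its own libraries, or at an adjusted p under 0.01 alone in the F test. SE was derived from the F statistic, and CPM used TMM library sizes. Total counts, from 23574292 to 46901985, put every member above 90 counts in each library, so the precision was set by the spread between libraries.

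All members were named, and of the other lists the genes called the same way in all 3 tissue comparisons, with at most 6 a list, and genes of the protease, inhibitor and class II lists with a mean of at least 10 CPM in any group could be named. For each member the 3 genes with the highest Pearson r of log2 CPM (prior count 2) were found. Members, lists and tests were chosen with earlier results of these data known. The libraries share replicate numbers. Deviations from the group means of same-numbered libraries correlated at 0.15, 0.20 and 0.21 between lamina propria CD103+ and CD11b+ DCs. Between lamina propria CD103+ and double-positive DCs they correlated at 0.16, 0.13 and 0.19. No other groups had all values above 0.1. Lamina propria double-positive and CD11b+ DCs had 0.21, 0.075 and 0.25, so pairing may hold among all 3 lamina propria groups. The main fit held no replicate block. Alternatives were DESeq2 1.42.0 as the test or for size factors, total counts, no filter, at least 100 counts in at least 3 libraries, an adjusted p under 0.05, the libraries compared alone, a replicate block, each library left out and the 2 libraries with both sex-linked transcripts left out. Chosen after seeing the data were a fit of the block to lamina propria samples alone, the principal transcript as length and the counts of the other lists under other scalings.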

Additional observations from a re-analysis of the deposited data

Results flagged for a closer look

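For all 10 genes the tissue effect differed between the DC subsets by the F test of the difference itself. The adjusted p was 2.1e-12 for Lgmn, 4.3e-07 for Ctss, 8.2e-08 for Ctsb, 0.0022 for Ctsl and 9.1e-07 for Ctsd. It was 1.1e-07 for Ctsh, 1.4e-08 for Ctsz, 5.3e-05 for Ctsc, 3.7e-06 for Cst3 and 8.8e-09 for Ifi30. The log2 fold change of lymph node over lamina propria was -0.73 in CD103+ DCs and 0.78 in double-positive DCs for Cst3. For Ctsc it was -0.95 in CD11b+ and 0.73 in CD103+ DCs. The signs were opposite for each of these genes, and all 4 values were under 2-fold. Of all genes 31.5% passed the same F test.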

How the results depend on the processing

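The number of the 10 genes called was within 1.5 times that reported, apart from the cases given here. Between tissues in CD11b+ DCs it was 2, and 1 under total counts and with only the libraries compared, where Ctsl was lost, and it lay between 1 and 3 with a library left out, Ctsl being lost without the third lamina propria CD11b+ library (-0.76). In double-positive DCs it was 5, and 3 under total counts. For the difference of the tissue effects between double-positive and CD11b+ DCs it was 4, and 1 under total counts. Total counts moved the median of all genes between tissues from 0.03 to 0.17 in CD11b+, from 0.04 to -0.18 in CD103+ and from 0.07 to -0.10 in double-positive DCs, and for the differences of tissue effects against CD11b+ DCs from 0.01 to -0.35 (CD103+) and from 0.01 to -0.30 (double-positive), where the share of higher genes among all called went from 50.2% to 29.2% and from 49.0% to 25.3%. Of the log2 fold changes of single genes, 14 lost and 3 gained a call and 1053 did neither under the other settings, and 15 lost and 5 gained one and 880 did neither with a library left out. No called value changed sign. Values not called changed sign in 14 and 12 cases, none above 0.15 in size as reported. Ifi30 in lymph node double-positive against CD11b+ DCs (1.00) fell under the fold limit with no filter, the stricter filter and 3 of the left-out libraries (0.88 to 0.98). Ctsz in lymph node CD103+ against CD11b+ DCs lost its call without either of 2 lymph node CD11b+ libraries or the third CD103+ library (0.92 to 0.996), and Ctsc there without the third CD11b+ library (-0.97). The causes were not tested. With the replicate block the counts were those reported, 9 for lamina propria CD103+ against CD11b+ and 9 for double-positive against CD103+ DCs, also with the lamina propria libraries alone, and the block changed no call of a member.

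Depth did not limit the members, the lowest count being 92 (Ctsd). With 3 libraries a group and the tissue tied to the sex of the animals, a tissue difference is a difference between these sets of libraries. How reads shared with overlapping or near-identical genes were counted is not given. This bears on Ctsd, Ctsl, Ctsb and Ifi30 and, in the class II list, on H2-DMb1 and H2-DMb2.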

Other observations

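Some lysosomal genes outside the members and the naming rule, chosen after their values were seen, differed between the same groups. Ppt1, a thioesterase that removes fatty acids from proteins, was at 5974 CPM in lamina propria CD103+ DCs and between 236 and 386 CPM as a mean in the other 5 groups, and its log2 fold change between tissues was -4.02 (SE 0.15, adjusted p = 1.3e-12) in CD103+ DCs and 0.52 (SE 0.13, adjusted p = 0.0028) in double-positive DCs. Lamp1, a major membrane glycoprotein of lysosomes, went from 184 to 2639 CPM in CD103+ DCs (3.84 ± 0.16, adjusted p = 2.6e-12) and from 485 to 2244 CPM in double-positive DCs (2.21 ± 0.14, adjusted p = 1.3e-09). Psap, the precursor of lipid-degrading cofactors, was at 16541 CPM in lamina propria CD103+ and 1771 CPM in lymph node CD103+ DCs (-3.22 ± 0.20, adjusted p = 4.3e-10).

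Tfeb, the transcription factor known for binding CLEAR elements and likewise chosen after its values were seen, was at 36.1 and 36.6 CPM in lamina propria and lymph node CD103+ DCs (0.02 ± 0.11, adjusted p = 0.9). Tfe3, a factor of the same family, also chosen after its values were seen, was at 56.0 and 129.9 CPM (1.21 ± 0.09, adjusted p = 3.1e-09).

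Of the genes with a mean of at least 10 CPM, those whose log2 CPM over the 18 libraries had the highest Pearson r with Ctss were Ceacam1 (0.97), Gm15987 and Relt (0.96 each). With Ctsl they were Cebpd, Rnf13 and Nceh1 (0.94 each), with Ctsd Tspan32 (0.98), Ltb and Cst7 (0.97 each) and with Ctsh Dapp1 (0.97), Decr1 and Zmiz2 (0.96 each). With Ctsz they were Ifi30 (0.99), St14 and Nfkbie (0.98 each), and with Ifi30 they were Ctsz, Lpp and Cradd (0.98 each for the last 2).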
